A study of Mus musculus with 12 samples.

Results

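The peroxisome proliferator-activated receptors (PPARs), their partners the retinoid X receptors (RXRs) and a pair of cofactors that hold nuclear receptors in check were followed through β-adrenergic stimulation and lipase inhibition in mature white adipocytes. The set has 8 members, the genes Ppara, Ppard and Pparg, Rxra, Rxrb and Rxrg, and Ncor1 and Nrip1. They were picked by symbol from the 20295 genes of the count table, and each of them passed the filter on low counts that left 13543 genes to be tested. The cells were floated out of collagenase-digested epididymal fat of lean male C57/BL6J mice whose age the labels do not give, seeded at 50000 cells per well in a hydrogel, and treated after 2 days of culture. The question was how ISO (isoproterenol, an agonist of all β-adrenergic receptors) changes the transcriptome within 3 h, and how that change depends on lipolysis. Vehicle cultures received DMSO and neither drug, and ISO cultures received ISO alone. Lip cultures received the lipase inhibitors alone, which the study's methods name as Atglistatin against ATGL and CAY10499 against HSL and MGL. Lip+ISO cultures received the inhibitors first and ISO afterwards. All 4 groups share the digestion, the hydrogel and the medium, carry no genetic change, and hold 3 libraries each from separate experiments.

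A PPAR binds DNA as a heterodimer with an RXR, and fatty acids and their derivatives serve as ligands that turn the pair from repression to activation of genes of lipid storage, transport and oxidation. PPARγ, the product of Pparg, drives adipocyte differentiation and maintains the mature fat cell, PPARα is best known from the liver and from brown fat as an activator of fatty acid oxidation, and PPARδ, encoded by Ppard, is expressed widely. NCOR1 is a scaffold that brings histone deacetylases to receptors without an activating ligand, and RIP140, the product of Nrip1, is a ligand-dependent corepressor that is known for keeping thermogenic and oxidative genes low in white fat.

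Libraries held 22632220 to 43707557 counts. All 10 adipocyte markers tested were measured, and their summed level was between 26516 and 41449 CPM (counts relative to library size, scaled by the TMM method of edgeR) in every library. It was 32785 to 41449 CPM with vehicle, 29014 to 38550 with ISO, 30335 to 35573 with Lip and 26516 to 36340 with Lip+ISO. The markers Adipoq, Plin1, Fabp4, Cidec, Lipe and Pnpla2 also stand in the list of PPAR targets below. Fabp4 made up much of the sum, with means of 16183 CPM with vehicle and 14216 CPM with ISO. Called lower were 1 of the 10 adipocyte markers in ISO against vehicle, 2 in Lip+ISO against Lip and 1 in Lip+ISO against ISO. Over all genes 13.9%, 15.8% and 4.59% were called lower in these comparisons. With a block for the replicate number the marker counts were 1, 3 and 3, and none was called higher. Over all genes the block called 38.5% and 35.6% in either direction in the first 2 of these comparisons. The summed level of macrophage markers was 51.4 to 64.7 CPM with vehicle, 109.9 to 164 with ISO, 56.4 to 61.3 with Lip and 71.6 to 123 with Lip+ISO. Endothelial markers summed to 123 to 233, 285 to 517, 61.01 to 204.5 and 95.6 to 282 CPM in the same order, those of fibroblasts and progenitors to 349 to 627, 683 to 928, 465 to 496 and 412 to 599, and those of mesothelial cells to 29.4 to 72.2, 72.1 to 86.1, 15.1 to 126 and 47.4 to 66.1. The sums of macrophage, endothelial, and fibroblast and progenitor markers were therefore higher in every ISO library than in any vehicle library. Those of mesothelial markers overlapped. In ISO against vehicle, 6 of 9 macrophage, 1 of 10 endothelial, 3 of 10 fibroblast and progenitor and 1 of 8 mesothelial markers were called higher. Over all genes 12.3% were called higher there. With a block for the replicate number 8, 9, 7 and 2 of these markers were called higher, beside 38.5% of all genes in either direction. None was called lower in either fit (the tenth macrophage marker listed, Adgre1, was not found by that symbol). In Lip+ISO against Lip, 3 macrophage, 1 endothelial and 1 mesothelial marker were called higher, and 0 of fibroblasts and progenitors, beside 11.5% of all genes. With the block these numbers were 4, 7, 1 and 2, beside 35.6% of all genes in either direction. In Lip+ISO against ISO, 1 endothelial and 3 fibroblast and progenitor markers were called lower, beside 4.59% of all genes. With the block these were 8 and 6, and 2 macrophage markers and 1 mesothelial marker were also called lower. Over all genes the block called 1458 of 13543 lower in that comparison. The part of any of these cell types in the results below was not tested. In RNA from whole cultures, fewer cells of a type and less RNA per cell cannot be told apart.

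Per kilobase of counted length, the scale on which different genes can be compared, Pparg was the most abundant member in every group and Rxra came next. With vehicle the level of Pparg was 182 ± 8.88 CPM per kilobase (SD, n = 3) and that of Rxra 58.0 ± 6.19. Rxrb (26.3 ± 1.81), Ncor1 (25.1 ± 1.74), Nrip1 (24.1 ± 0.868) and Ppard (23.6 ± 0.770) followed, and neighbours in that order overlapped between libraries. Rxrg (5.68 ± 1.11) and Ppara (2.75 ± 0.160) stood last and apart from each other. Both ends of the order were the same in the other groups, while its middle was rearranged. Ppard was in the third place with ISO (28.8 ± 2.43) and with Lip+ISO (33.4 ± 6.99), overlapping neither Rxra above it nor the gene below it. Nrip1 stood below Ncor1 without overlap only in the Lip group, at 14.5 ± 0.618 against 22.2 ± 0.837, and no test was made of these orders.

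**Figure D1:**
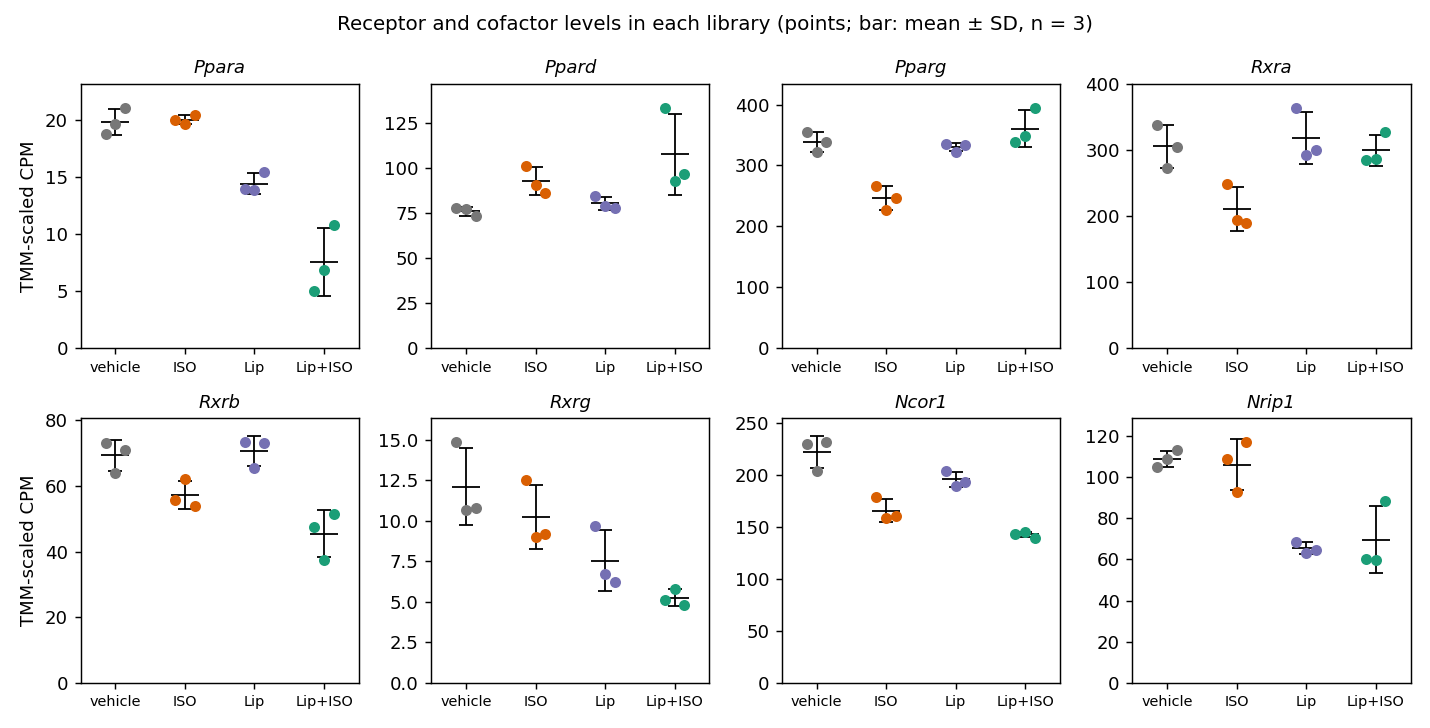
TMM-scaled CPM of the 8 members in each of the 12 libraries, one panel per gene with its own axis from 0, points for libraries and bars for the mean ± SD of 3. Pparg and Rxra dip with ISO alone (means 246 and 211 CPM) and not with Lip+ISO (360.4 and 299), and Ppara is lowest with Lip+ISO (7.57).

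The drugs moved different members in different comparisons. A member was called where the adjusted p of edgeR's quasi-likelihood test (Benjamini-Hochberg, over 13543 genes) was at or under 0.05, whatever the size of the change, and all adjusted p-values below are from that test unless another fit is named. ISO against vehicle called 0 members higher and 3 lower (Pparg, Rxra and Ncor1), where 12.3% of all genes were called higher and 13.9% lower. Lip+ISO against Lip called 1 higher (Ppard) and 3 lower (Ppara, Rxrb and Ncor1), against 11.5% and 15.8% of all genes. Scaling by library totals alone turned the split over all genes from 1670 higher and 1878 lower into 1365 and 2329 in the first of these comparisons, and from 1562 and 2140 into 1069 and 2968 in the second, where it moved the median of all genes to -0.12 (log2). A block for the replicate number called 1 member higher and 4 lower in each of these comparisons (38.5% and 35.6% of all genes in either direction) and 0 higher and 1 lower in Lip against vehicle (0.199%).

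The inhibitors alone called none of the 8 members against vehicle, where 0.00738% of all genes were called higher and 0.0443% lower. At an unadjusted p under 0.05, 4 members passed in edgeR against 4.3% of all genes, and DESeq2 called 1 (Nrip1, lower) with 22 genes higher and 35 lower over the whole table. In the presence of ISO the inhibitors called 2 members higher (Pparg and Rxra) and 3 lower (Ppara, Rxrg and Nrip1), against 4.36% and 4.59% of all genes. The interaction, which is the response to ISO with inhibitors minus the response without, was called for Pparg alone, as higher, against 0.901% of all genes called higher and 0.724% lower. Libraries of the groups compared did not overlap for 5 members in ISO against vehicle (43.3% of all genes), 6 in Lip+ISO against Lip (39.1%), 4 in Lip against vehicle (10.4%) and 7 in Lip+ISO against ISO (25.4%). The median log2 fold change of the members was -0.26, -0.27, -0.11 and -0.27 in these comparisons, where the median of all genes was between -0.01 and 0.00.

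**Figure D2:**
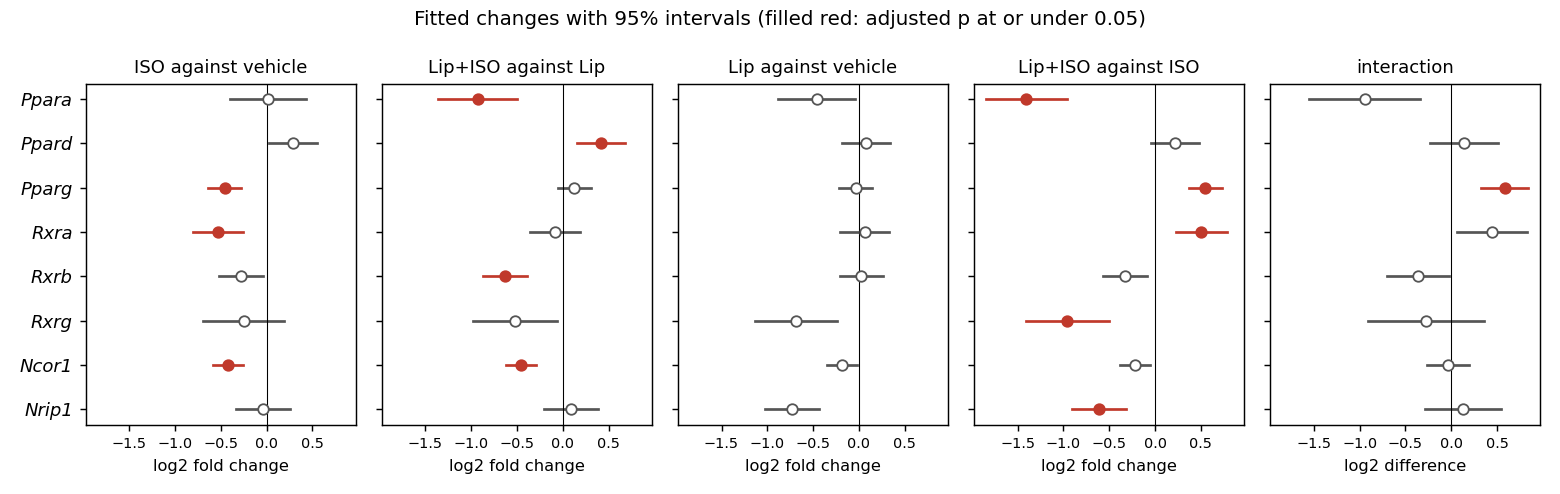
Fitted log2 fold changes of the 8 members in the 4 comparisons and the interaction, with 95% intervals that are not adjusted for the number of genes. Filled red points are the calls at an adjusted p at or under 0.05, from Ppara at -1.40 to Pparg at 0.55 in Lip+ISO against ISO.

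Pparg, by far the most abundant of the receptors here, fell with ISO, and its response to ISO differed when the lipases were inhibited. Its level was 354, 321 and 338 CPM in the vehicle libraries and 266, 227 and 247 CPM in the ISO libraries. With the inhibitors it was 334, 322 and 334 CPM without ISO and 338, 349 and 395 CPM with it. The 3 ISO libraries thus lay below all 9 others, and the libraries of Lip+ISO lay just above those of Lip. The change with ISO was -0.46 ± 0.08 on the log2 scale (± SE, adjusted p = 0.00165), a 1.37-fold fall, and it was called in each of the 15 fits that left out a library or a replicate number. In the presence of inhibitors the change with ISO was 0.13 ± 0.08 (95% interval -0.05 to 0.31, adjusted p = 0.306). Lip+ISO was higher than ISO by 0.55 ± 0.08 (adjusted p = 0.00138), which did not pass when all libraries numbered 2 or all numbered 3 were left out (adjusted p = 0.0621 and 0.0523).

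The responses of Pparg to ISO with and without inhibitors differed from each other by 0.58 ± 0.12 on the log2 scale (95% interval 0.33 to 0.84, adjusted p = 0.0274). With the replicate number as a block this difference was 0.58 ± 0.10 (adjusted p = 0.00622). The size of the Pparg interaction was between 0.52 and 0.68 over the 15 leave-out fits, but it was called in 4 of them only. Without vehicle replicate 1 or 3, ISO replicate 2 or 3, any 1 of the Lip libraries or Lip+ISO replicate 3, its adjusted p was between 0.0503 and 0.0933. Lip alone left Pparg at -0.03 ± 0.08 against vehicle (95% interval -0.22 to 0.15).

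Ppara, whose product is a main activator of fatty acid oxidation genes, was lowest where both drugs were present. It was at 18.8, 19.6 and 21.1 CPM with vehicle and at 20.04, 19.7 and 20.5 CPM with ISO. With Lip it was at 13.9, 13.9 and 15.5 CPM, and with Lip+ISO at 5.01, 6.89 and 10.8 CPM. Every Lip library lay below every library without inhibitors, and every Lip+ISO library lay below every Lip library, although replicate 3 of Lip+ISO was well above replicate 1. These levels rest on 124 to 870 counts per library. ISO alone changed Ppara by 0.01 ± 0.19 (95% interval -0.41 to 0.43), whereas with the inhibitors present it fell by 0.93 ± 0.20 with ISO (adjusted p = 0.00388). Lip+ISO against ISO gave -1.40 ± 0.20 on the log2 scale, 2.65-fold lower (95% interval -1.84 to -0.97, adjusted p = 0.000915), the largest change of a member in any of the 4 comparisons.

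Of the 15 leave-out fits, both Ppara calls were lost in 1, that without replicate 2 of every group (adjusted p = 0.0509 against ISO and 0.0773 against Lip). Lip against vehicle gave Ppara -0.46 ± 0.19 and an adjusted p of 1.00. The interaction of Ppara was -0.95 ± 0.28 (95% interval -1.55 to -0.34) and was not called (adjusted p = 0.129). Without Lip+ISO replicate 3, the highest of its group, the Ppara interaction was -1.27 with an adjusted p of 0.00625, and DESeq2 gave -0.93 with an adjusted p of 0.0335.

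Ppard was the member that ISO raised. It was at 77.7, 77.2 and 73.2 CPM with vehicle, 101 (replicate 1), 90.3 and 86.1 with ISO, 84.5, 78.6 and 77.7 with Lip, and 133, 92.7 and 96.4 with Lip+ISO. Libraries with ISO lay above all libraries without it, and replicate 1 of Lip+ISO stood well above the others of its group. With inhibitors present, ISO raised Ppard by 0.42 ± 0.12 on the log2 scale, or 1.34-fold (adjusted p = 0.0195). That call was lost without Lip replicate 2 (0.40, adjusted p = 0.0662), Lip replicate 3 (0.40, 0.0657) or Lip+ISO replicate 1 (0.23, 0.0620), and when all libraries numbered 2 or all numbered 3 were left out (0.0750 and 0.0758). Without inhibitors the Ppard change was 0.28 ± 0.12 and missed the threshold (adjusted p = 0.101), which it passed with the replicate number as a block (0.28 ± 0.09, adjusted p = 0.0239) and without Lip+ISO replicate 1 (0.28, adjusted p = 0.0156). The difference of these Ppard responses was 0.14 ± 0.17 (95% interval -0.23 to 0.51), and Lip against vehicle gave 0.08 ± 0.12.

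Expressed as shares within a library, which no scaling of libraries can change, transcripts of Pparg made up 87.3% ± 0.609 (SD, n = 3) of the summed PPAR level per base with vehicle, 80.8% ± 0.962 with ISO, 86.8% ± 0.390 with Lip and 84.9% ± 3.22 with Lip+ISO. The share of Ppard was 11.3% ± 0.580, 17.5% ± 0.959, 12.2% ± 0.447 and 14.7% ± 3.35 in the same order, and that of Ppara 1.32% ± 0.109, 1.70% ± 0.116, 0.978% ± 0.0579 and 0.455% ± 0.152. With ISO alone the share of Ppard was thus higher and that of Pparg lower than with vehicle, and the groups did not overlap in either. In Lip+ISO the Ppard share was 18.5% in replicate 1 and 13.2% and 12.3% in the others, so the group spanned most of the range between vehicle and ISO. The share of Ppara was lower in every Lip+ISO library than in any other library.

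Among the RXRs the share of Rxra was 64.4% ± 0.528, 60.0% ± 3.34, 66.5% ± 1.60 and 74.3% ± 1.85 with vehicle, ISO, Lip and Lip+ISO, and that of Rxrb 29.3% ± 1.12, 32.9% ± 4.02, 29.6% ± 2.17 and 22.5% ± 2.24. Rxrg supplied 6.28% ± 0.719 and 7.17% ± 0.690 without inhibitors and 3.87% ± 0.576 and 3.25% ± 0.567 with them. The makeup of the RXR pool with Lip+ISO was therefore the one richest in Rxra, and its 3 libraries overlapped with no other group in the shares of Rxra and Rxrb. Over 24 comparisons of shares, an exact two-sided permutation test of 3 libraries against 3 gave its smallest possible p of 0.1 in 13 (0.185 after Benjamini-Hochberg adjustment), so no comparison of shares could reach 0.05.

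**Figure D3:**
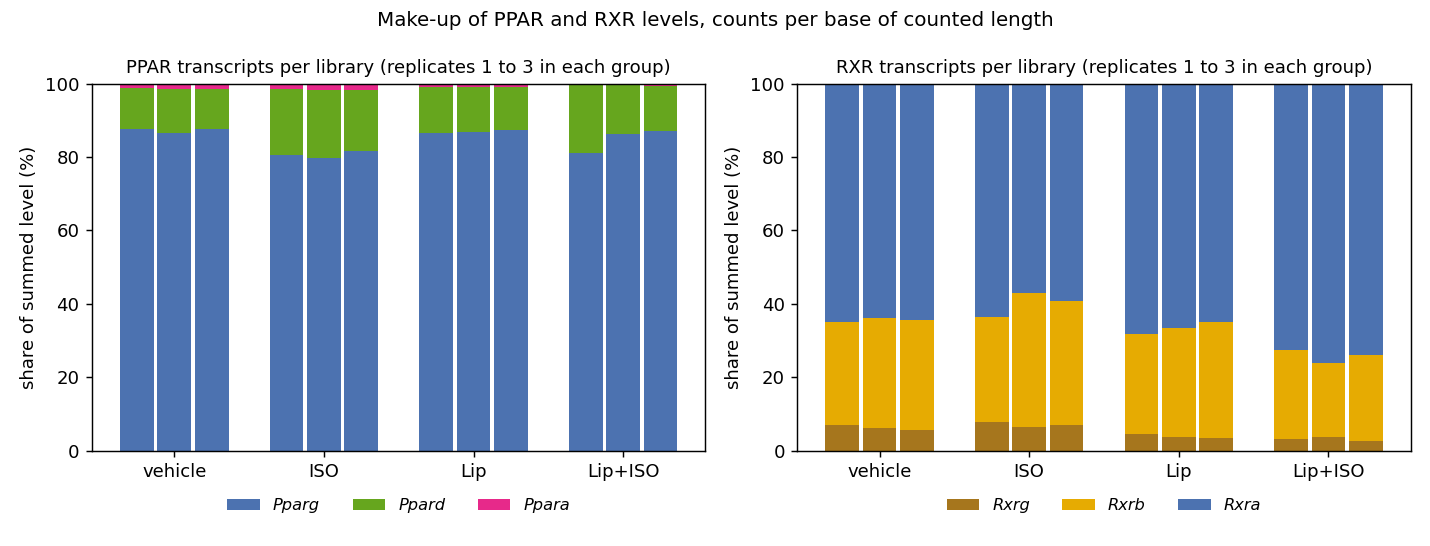
Makeup of the PPAR transcripts (left) and RXR transcripts (right) in each of the 12 libraries, as percent of the summed counts per base of counted length. Ppard takes a wider part of the PPAR bar with ISO (17.5% on average) than with vehicle (11.3%), and Rxra takes its widest part of the RXR bar with Lip+ISO (74.3%).

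Rxra, the main RXR of adipocytes, moved like Pparg. Its level was 338, 273 and 305 CPM with vehicle, 249, 195 and 189 CPM with ISO, 364, 292 and 299.5 CPM with Lip, and 285, 287 and 327 CPM with Lip+ISO. The ISO libraries lay below all others, and in each group without the drug pair replicate 1 was the highest. With ISO alone Rxra fell by 0.53 ± 0.13 on the log2 scale, or 1.45-fold (adjusted p = 0.00799), a call lost when all libraries numbered 2 or all numbered 3 were left out (adjusted p = 0.0589 and 0.102). With inhibitors present the change with ISO was -0.09 ± 0.13 (95% interval -0.36 to 0.18, adjusted p = 0.667). Rxra was higher in Lip+ISO than in ISO by 0.51 ± 0.13 (adjusted p = 0.0255), which did not pass without ISO replicate 2 (0.45, adjusted p = 0.113), ISO replicate 3 (0.43, 0.109) or Lip+ISO replicate 3 (0.45, 0.0906), or when all libraries numbered 2 or all numbered 3 were left out (0.190 and 0.317). The interaction of Rxra was 0.45 ± 0.18 (95% interval 0.06 to 0.83) with an adjusted p of 0.284, and Lip against vehicle gave 0.06 ± 0.13.

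Rxrb, which encodes a widely expressed RXR, fell with ISO where the inhibitors were present. It was at 72.9, 63.9 and 71.0 CPM with vehicle, 55.7, 62.0 and 53.8 with ISO, 73.2, 65.3 and 73.2 with Lip, and 47.5, 37.5 and 51.3 with Lip+ISO. All Lip+ISO libraries were below all ISO libraries, which in turn were below all libraries without ISO. In the presence of inhibitors Rxrb fell with ISO by 0.64 ± 0.11 on the log2 scale, or 1.55-fold (adjusted p = 0.000826, called in 15 of 15 leave-out fits). Without inhibitors the Rxrb change was -0.28 ± 0.11 and not called (adjusted p = 0.0825). It was called with the replicate block (-0.27 ± 0.10, adjusted p = 0.04999), with scaling by library totals (-0.31, 0.0328) and without Lip+ISO replicate 2 (-0.28, 0.0348). The difference of the Rxrb responses was -0.36 ± 0.16 (adjusted p = 0.326). Lip+ISO against ISO gave -0.33 ± 0.11 (adjusted p = 0.0873), and Lip against vehicle 0.03 ± 0.11.

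Rxrg, the least abundant RXR, was lower with the inhibitors in the presence of ISO. It was at 14.8, 10.7 and 10.8 CPM with vehicle, 12.51, 9.00 and 9.17 with ISO, 9.69, 6.73 and 6.23 with Lip and 5.13, 5.82 and 4.81 with Lip+ISO, from 121 to 470 counts per library. Libraries of Lip+ISO were the lowest, those of Lip came next and lay below all vehicle libraries, and ISO overlapped with both Lip and vehicle. The Rxrg level was 1.94-fold lower in Lip+ISO than in ISO, a log2 difference of -0.96 ± 0.21 (adjusted p = 0.0132), which did not pass without Lip+ISO replicate 3 (-0.88, adjusted p = 0.0603) or when all libraries numbered 2 or all numbered 3 were left out (0.0763 and 0.113). Lip against vehicle gave Rxrg -0.69 ± 0.21, with an unadjusted p of 0.00561 in edgeR that became 0.672 after adjustment. ISO against vehicle gave -0.25 ± 0.20 (adjusted p = 0.393). Lip+ISO against Lip gave -0.52 ± 0.21 (adjusted p = 0.0893), which passed with the replicate block (-0.49 ± 0.15, adjusted p = 0.0232) and with scaling by library totals (-0.62, 0.0317).

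Ncor1, the corepressor scaffold, fell with ISO both without and with the inhibitors. It was at 230.2, 204 and 231 CPM with vehicle, 179, 159 and 160.1 with ISO, 204, 189.9 and 194 with Lip and 144, 145 and 139.8 with Lip+ISO. The vehicle libraries were the highest, followed by those of Lip, ISO and Lip+ISO, and no groups overlapped, although the lowest vehicle and the highest Lip library were both at 204 CPM. Without inhibitors the change with ISO was -0.42 ± 0.08 on the log2 scale (1.34-fold, adjusted p = 0.00143) and with them -0.46 ± 0.08 (1.37-fold, adjusted p = 0.000563), and both were called in 15 of 15 leave-out fits. The difference of the Ncor1 responses was -0.03 ± 0.11 (95% interval -0.27 to 0.20). Lip+ISO against ISO gave -0.21 ± 0.08 (adjusted p = 0.103) and Lip against vehicle -0.18 ± 0.08 (unadjusted p = 0.0331, adjusted p = 1.00). On chromosome 11 of mm9, from 62129928 to 62252017 on the minus strand, Ncor1 overlaps Ttc19 on the other strand, and since no source states that counting used strand, reads of the shared stretch cannot be assigned to one of them.

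Nrip1, the corepressor of oxidative genes, was lower with the inhibitors in the presence of ISO, and no change of it with ISO was called. It was at 105, 109 and 113 CPM with vehicle and at 109, 92.8 and 117 CPM with ISO. With Lip it was at 68.6, 63.3 and 64.6 CPM and with Lip+ISO at 60.4, 59.9 and 88.5 CPM. All 6 libraries with inhibitors lay below all 6 without, and replicate 3 of Lip+ISO was the highest of the former. The Nrip1 level was 1.52-fold lower in Lip+ISO than in ISO, a log2 difference of -0.61 ± 0.14 (adjusted p = 0.0141). That call was lost without ISO replicate 3 (-0.54, adjusted p = 0.0644) or Lip+ISO replicate 2 (-0.51, 0.0538), when all libraries numbered 1 or all numbered 2 were left out (0.133 and 0.108), and when only the groups compared were fitted (-0.61, 0.0583).

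Without ISO the difference of Nrip1 was of similar size, -0.73 ± 0.14 (95% interval -1.03 to -0.44), and missed the threshold at an adjusted p of 0.105. The same comparison of Nrip1 was called with the replicate block (-0.73 ± 0.11, adjusted p = 0.0198), by DESeq2 (-0.74, 0.000609), without a filter on low counts (-0.74, 0.0495), with only the groups compared (-0.73, 0.0232) and without Lip+ISO replicate 3 (-0.74, 0.00803). ISO changed Nrip1 by -0.04 ± 0.13 without inhibitors (95% interval -0.33 to 0.25) and by 0.09 ± 0.14 with them (-0.21 to 0.38). The inhibitors' change had the same sign without and with ISO in 6 of 8 members. The change with ISO had the same sign without and with inhibitors in 5 of 8. Each of these pairs of comparisons shares no library, but the same counts were not made over all genes and no test was made of them. Some of the signs rest on small changes, such as -0.04 and 0.09 for Nrip1 with ISO.

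Ppara, Rxrg and Nrip1 were the members called lower in Lip+ISO than in ISO without a replicate block. Rxrb (-0.33) and Ncor1 (-0.21) were lower there too, and were called only with the block. The 250 bases before the start that the table gives for Ppara, Rxrg and Nrip1 (build mm9, 5′ to 3′ on the gene's strand) are shown to place them side by side. The windows were chr15:85565744-85565993 (plus strand) for Ppara, chr1:169528243-169528492 (plus strand) for Rxrg and chr16:76373295-76373544 (minus strand) for Nrip1. Capitals mark letters of the searched motifs AGGTCA and TGACG on either strand.
Ppara: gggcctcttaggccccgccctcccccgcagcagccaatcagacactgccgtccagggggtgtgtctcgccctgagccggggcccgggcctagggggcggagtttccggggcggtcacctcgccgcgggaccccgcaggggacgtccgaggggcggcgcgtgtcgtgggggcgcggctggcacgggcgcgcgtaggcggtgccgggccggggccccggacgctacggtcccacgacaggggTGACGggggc
Rxrg: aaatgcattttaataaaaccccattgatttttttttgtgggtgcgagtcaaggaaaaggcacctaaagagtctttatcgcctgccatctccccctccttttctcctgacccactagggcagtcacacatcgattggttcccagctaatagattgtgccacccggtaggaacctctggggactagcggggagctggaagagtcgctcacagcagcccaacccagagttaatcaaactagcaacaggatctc
Nrip1: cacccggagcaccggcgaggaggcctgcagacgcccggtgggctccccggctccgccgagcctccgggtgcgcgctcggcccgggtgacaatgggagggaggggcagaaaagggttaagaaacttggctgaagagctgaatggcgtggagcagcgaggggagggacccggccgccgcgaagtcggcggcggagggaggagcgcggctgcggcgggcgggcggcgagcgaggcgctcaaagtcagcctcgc

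The windows of Ppara and Nrip1 are rich in G and C (78.8% and 73.6%), and that of Rxrg is not (49.2%). TGACG, the core of the cAMP response element, lay 10 to 6 bases before the start of Ppara, and the other windows printed hold neither motif. Over 20292 windows of the same kind, TGACG was found in 21.2% and in 2 of the 8 members (Ppara and Rxrb), and AGGTCA, the core that PPAR and RXR bind, in 12.04% and in 1 member (Pparg). The direct repeat AGGTCANAGGTCA was found in 0.0542% of windows and the palindrome TGACGTCA, which holds TGACG, in 2.14%, and in none of the members. The bases next to the start of Ppara and of Pparg matched no RefSeq promoter of that gene, unlike those of the other members. The window of Rxrb overlaps exons of Slc39a7 and Gm20427. A match is a description of these letters and not a site that was measured. The table places the transcribed spans at chr15:85565994-85637281 (Ppara), chr1:169528493-169569754 (Rxrg), both on the plus strand, and chr16:76291107-76373294 (Nrip1) on the minus strand, and those of the other receptors at chr17:28369699-28438414 (Ppard), chr6:115311239-115440419 (Pparg), chr2:27532721-27618839 (Rxra) and chr17:34168757-34175348 (Rxrb), all on the plus strand.

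Genes that PPARs are known to activate did not follow one direction. The list holds 48 such genes of lipid uptake, storage, oxidation and thermogenesis, written from general knowledge, and 47 were tested (Cyp4a10 had at most 9 counts in a library). ISO against vehicle called 9 higher and 2 lower, beside 12.3% and 13.9% of all genes, with a list median of -0.01 (log2). Ucp1, the uncoupling protein of thermogenic fat, rose from 0.467 to 128 CPM (8.11 ± 0.37, adjusted p = 3.12e-08), and Hilpda, an inhibitor of ATGL found on lipid droplets, rose from 24.2 to 271 CPM (3.49 ± 0.18). Acot3, an acyl-CoA thioesterase, rose by 2.24 ± 0.26, whereas Pex11a of peroxisome division (-0.46 ± 0.12) and Vldlr, a lipoprotein receptor (-0.44 ± 0.10), fell. With the replicate block 11 were called higher and 9 lower, beside 38.5% of all genes in either direction. The number called lower was 5 without ISO replicate 1 and 1 without vehicle replicate 1 or ISO replicate 2. Its range was 0 to 7 over the 15 leave-out fits.

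In the presence of inhibitors ISO called 6 of these targets higher and 5 lower (median 0.07), beside 11.5% and 15.8% of all genes. With the replicate block 8 and 8 were called, beside 35.6% of all genes in either direction. Ucp1 (8.22 ± 0.35), Hilpda (3.36 ± 0.18) and Cidea, a lipid droplet protein of brown fat (2.00 ± 0.32), rose. Cidea was also called higher without inhibitors (1.23 ± 0.32, adjusted p = 0.0136). Acot3 (1.32 ± 0.27) and Vldlr (-0.37 ± 0.10) were called with inhibitors in the same direction as without. Angptl4, a secreted inhibitor of lipoprotein lipase, fell from 747 to 149 CPM (-2.33 ± 0.14, adjusted p = 8.02e-08), Pdk4, the kinase that shuts pyruvate dehydrogenase, fell by 1.32 ± 0.21, and the droplet protein gene Plin4 fell by 0.47 ± 0.13. The number called lower was 2 without Lip replicate 1 and 3 without Lip+ISO replicate 2 or 3.

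Lip against vehicle called 0 targets higher and 2 lower, Pdk4 (from 422 to 134 CPM, -1.66 ± 0.21, adjusted p = 0.0142) and the thioesterase Acot4 (-1.13 ± 0.14, adjusted p = 0.0142), with a list median of -0.17. The replicate block called 0 and 4, DESeq2 called 5 lower, and 0 were called lower without vehicle replicate 2 or 3 or any 1 of the Lip libraries, and 1 without vehicle replicate 1. Pdk4 and Acot4 are 2 of the 6 genes called lower by Lip over the whole table, or 0.0443% of all genes.

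In the presence of ISO the inhibitors called 10 targets lower and 2 higher (median -0.06), beside 4.59% and 4.36% of all genes. The number called lower was 5 to 11 over the 15 leave-out fits, with 5 when all libraries numbered 2 were left out and 6 when all numbered 3 were. Pdk4 was at 53.6 CPM with Lip+ISO against 880 (± 78.4, SD) with ISO, a log2 difference of -4.04 ± 0.23 (adjusted p = 8.02e-07), and Angptl4 was at 149 against 1078 CPM (-2.86 ± 0.14, adjusted p = 2.70e-07). The difference of Acot4 was -1.77 ± 0.14. Ucp1 was higher by 0.86 ± 0.23 (adjusted p = 0.0355) and Cpt1a, which admits fatty acids to mitochondria, by 0.29 ± 0.08 (adjusted p = 0.0429), and neither of these was called without vehicle replicate 1 or 3, ISO replicate 2 or 3 or Lip+ISO replicate 3, and 1 of them was called without vehicle replicate 2, Lip replicate 2 or 3 or Lip+ISO replicate 1. The interaction called 0 targets higher and 2 lower, Pdk4 (-2.38 ± 0.29, adjusted p = 0.00171) and Angptl4 (-2.06 ± 0.19, adjusted p = 0.000195). Over all genes it called 0.901% higher and 0.724% lower.

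**Figure D4:**
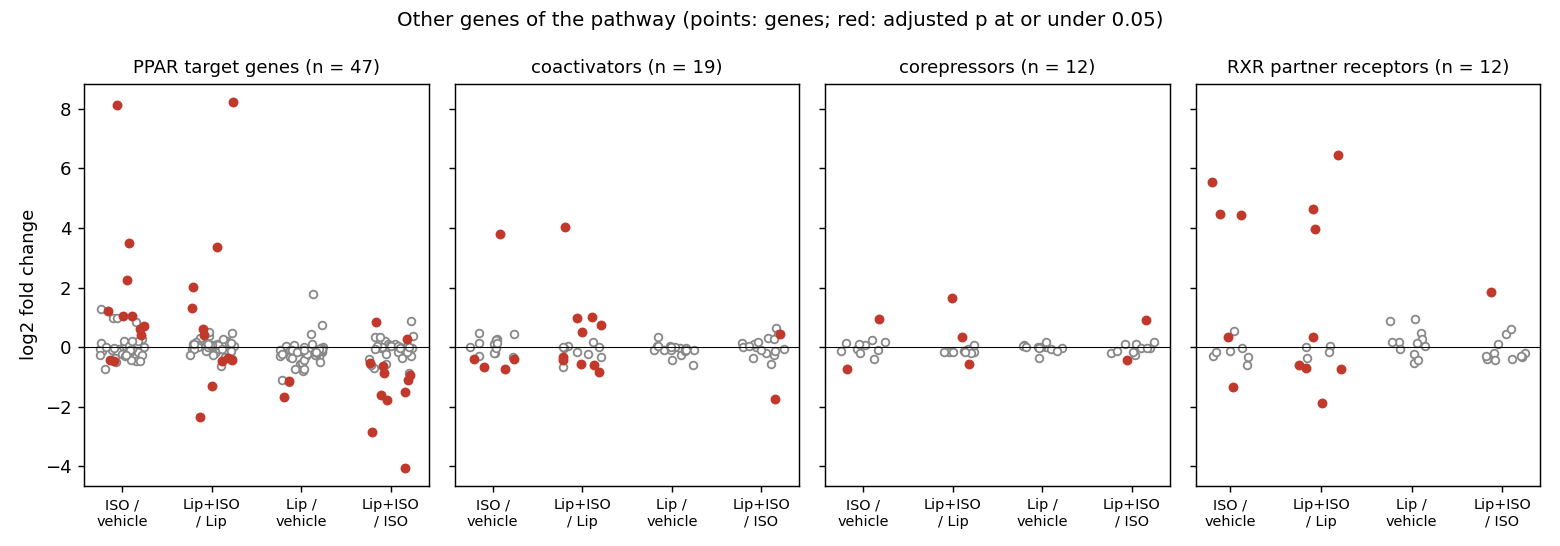
Fitted log2 fold changes of the tested genes of 4 lists (PPAR targets, coactivators, corepressors, receptors that pair with RXR) in the 4 comparisons, red where the adjusted p was at or under 0.05. With Lip+ISO against ISO, 10 of 47 PPAR targets lie below 0 in red, led by Pdk4 at -4.04, beside 4.59% of all genes. Lip against vehicle has 2 red points in all.

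Of the coactivators, which bridge liganded receptors to transcription, some rose and others fell. Of 19 tested, ISO called 1 higher and 4 lower without inhibitors (median 0.02) and 5 and 5 with them (median -0.04). Over all genes ISO called 12.3% higher and 13.9% lower without inhibitors and 11.5% and 15.8% with them. Ppargc1a, encoding the inducible coactivator PGC-1α, rose from 7.86 to 108 CPM without inhibitors (3.79 ± 0.20, adjusted p = 7.79e-08) and from 7.95 to 131 CPM with them (4.04 ± 0.20). The acetyltransferase Kat2b (-0.41 ± 0.07) fell without inhibitors, and so did Ncoa2 (-0.74 ± 0.13) and Ncoa6 (-0.68 ± 0.11), coactivators of many nuclear receptors. With inhibitors Ncoa2 (-0.83 ± 0.13), Ncoa6 (-0.59 ± 0.11) and Ncoa3 (-0.57 ± 0.07) fell, and Lpin1 (1.01 ± 0.17) and Helz2 (0.99 ± 0.23) rose. Kat2b was lower with ISO there too, at 76.6 CPM with Lip+ISO against 103 CPM with Lip. The replicate block called 4 higher and 6 lower without inhibitors, and 2 were called higher without Lip replicate 1 or 3.

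Lip called 0 coactivators in either direction against vehicle, and 1 each way against ISO in Lip+ISO (medians -0.05 and 0.01). In the latter comparison 4.36% of all genes were called higher and 4.59% lower. Ppargc1b, the relative of Ppargc1a, was lower in Lip+ISO than in ISO, at 6.09 against 20.5 CPM (-1.75 ± 0.27, adjusted p = 0.00163). Ep300, an acetyltransferase, was higher by 0.43 ± 0.11 (adjusted p = 0.0275), a call that was lost without ISO replicate 1 or 2 or Lip+ISO replicate 3, and 2 were called lower without Lip+ISO replicate 2.

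Of the corepressors other than the members, Sin3a fell with ISO both without and with the inhibitors. Of 12 tested (Nr0b2, with at most 11 counts, was not), 1 was called higher and 1 lower with ISO (median 0.00), or 2 and 1 with the replicate block, beside 12.3% and 13.9% of all genes. The change of Sin3a, a scaffold of deacetylases, was -0.74 ± 0.11 (adjusted p = 0.000491). With inhibitors ISO called 2 higher and 1 lower (median -0.15), beside 11.5% and 15.8% of all genes. The deacetylase gene Sirt1 rose by 0.34 ± 0.09 and Sin3a fell by 0.57 ± 0.11, and 2 were called lower without Lip+ISO replicate 1. Lip called 0 against vehicle (median 0.00). Lip+ISO against ISO called 1 higher and 1 lower, beside 4.36% and 4.59% of all genes. Lip+ISO was below ISO in Tbl1xr1, an exchange factor of corepressor complexes (-0.45 ± 0.10, adjusted p = 0.0117), which was not called without ISO replicate 3 (list median -0.02).

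Among receptors that pair with RXR, Vdr, Nr4a1 and Nr4a2 rose steeply with ISO both without and with the inhibitors. Of 12 tested (Nr1i2 had at most 8 counts), 4 were called higher and 1 lower with ISO (median -0.08), beside 12.3% and 13.9% of all genes. In the presence of inhibitors 4 and 4 were called with ISO (median -0.08), beside 11.5% and 15.8% of all genes. Vdr, the vitamin D receptor, rose from 7.11 to 329 CPM without inhibitors (5.54 ± 0.27, adjusted p = 4.45e-08) and from 13.7 to 1188 CPM with them (6.44 ± 0.27, adjusted p = 5.22e-09). The immediate early receptors Nr4a2 and Nr4a1 rose by 4.46 ± 0.30 and 4.42 ± 0.30 without inhibitors and by 4.62 ± 0.30 and 3.96 ± 0.29 with them. Rarg, a retinoic acid receptor, fell in both (-1.34 ± 0.12 and -1.88 ± 0.12). With inhibitors Rara (-0.73 ± 0.16) and Thrb (-0.70 ± 0.24), receptors of retinoic acid and thyroid hormone, also fell, and 2 were called lower without Lip replicate 1 or Lip+ISO replicate 3. The inhibitors called 0 of these receptors against vehicle (median 0.15) and 1 higher and 0 lower against ISO (median -0.25), which was Vdr at 1188 against 329 CPM (1.85 ± 0.22, adjusted p = 0.000192). In the last comparison 4.36% of all genes were called higher and 4.59% lower, and 1 of these receptors was called lower without ISO replicate 1.

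The genes whose log2 CPM over the 12 libraries followed a member most closely were named by Pearson's r among 9837 genes with a mean of at least 5 CPM. These values describe libraries that share groups, and no test was made. For Pparg they were Ric1 (r = 0.966), Dennd5a (0.961) and Sptbn1 (0.949), and for Rxra Prpf6 (0.971), Dennd5a (0.966) and Wscd2 (0.962). Dennd5a thus stood beside both, at 159.5 ± 5.73 CPM with ISO against 186 ± 7.06, 188 ± 6.29 and 188 ± 6.37 with vehicle, Lip and Lip+ISO. For Ncor1 they were Ibtk (0.988) and Cyb561a3 (0.982), for Rxrb F8a (0.984), Med12 (0.958) and Dhx30 (0.947), and for Ppard Abcb6 (0.970), Zwint (0.968) and Ptprd (0.953).

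Ppara was followed by Gramd4 (0.949), Grhl1 (0.947) and Plxna2 (0.944), of which Gramd4 was at 50.5 ± 2.06, 46.6 ± 1.02, 41.9 ± 1.59 and 23.9 ± 2.51 CPM with vehicle, ISO, Lip and Lip+ISO. For Rxrg the genes were Lipe (0.958), Tmem216 (0.955) and Rgcc (0.947). Lipe encodes HSL, a target of the inhibitors themselves, and was at 2578 ± 342, 2338 ± 454, 2029 ± 301 and 1492 ± 97.3 CPM in the same order. For Nrip1 they were Ttyh2 (0.923), Ffar4 (0.907) and Tank (0.900). Ffar4, a receptor of long-chain fatty acids at the cell surface, was at 7.24 ± 0.361 and 7.66 ± 0.856 CPM without inhibitors and at 4.33 ± 0.707 and 3.87 ± 0.579 CPM with them.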

How the data were processed

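RNA was sequenced from 12 cultures (TruSeq libraries, per the labels). The authors deposited raw read counts per gene, made by aligning reads with STAR 2.4.2a to mm9 and counting with HOMER, set to 1 read per position and length, and iRNA-seq on RefSeq genes. Such a limit could lower counts of abundant genes, but Pparg reached 6.49 counts per base of counted length in a library, so how it was applied is not clear. The deposited counts were analyzed in R 4.3.3 with edgeR 4.0.16: filterByExpr, TMM scaling (factors 0.924 to 1.07), 1 mean per group over all 12 libraries and the two-sided quasi-likelihood test, tested on simulated data. DESeq2 1.42.0 gave an alternative, and log2 CPM used a prior count of 2. Groups came from the sample titles. Same-numbered libraries of the groups compared deviated together with correlations over 0.1 for ISO against vehicle (0.139 to 0.331), Lip+ISO against Lip (0.192 to 0.298) and Lip against vehicle (0.197 to 0.369), but not throughout for Lip+ISO against ISO (0.0373 to 0.311), so blocked values stand beside results of the first 3 where the block changed a call or moved a count by over 1.5 times. Members and lists were chosen with earlier results of these data known. Besides the members, up to 3 called genes of each list with the largest rise and fall were named, and the 3 genes most like each member, except for genes that are not reported here. Levels per kilobase used the counted lengths in the table. Starts in the table count from 0 and were printed from 1: of 18991 genes matched to an annotation of the same assembly, 703 starts were equal as deposited and 10959 after adding 1.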

Additional observations from a re-analysis of the deposited data

Results flagged for a closer look

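Responses to ISO that differed between cultures with and without the inhibitors were looked for by the test of the difference itself, and 3 of the genes named passed it in edgeR. The response of Pparg was higher with inhibitors by 0.58 on the log2 scale (adjusted p = 0.0274), with -0.46 without them and 0.13 with them. The response of Pdk4 differed in the other direction, by -2.38 (adjusted p = 0.00171), since ISO against vehicle gave 1.06 and Lip+ISO against Lip -1.32. The response of Angptl4 differed by -2.06 (adjusted p = 0.000195), and its level was 1299 ± 123, 1078 ± 70.8, 747 ± 60.9 and 149 ± 28.4 CPM (SD, n = 3) with vehicle, ISO, Lip and Lip+ISO. Groups of 3 libraries were too small for a test of single outlying libraries.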

How the results depend on the processing

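Of the member counts, ISO against vehicle gave 1 higher with the replicate block and with only the groups compared, and 0 lower at a log2 fold change of at least 1. Lip+ISO against Lip gave 0 higher with library totals, with only the groups compared and at that fold change, and 0 lower at that fold change. Lip against vehicle gave 1 lower without a filter, by DESeq2, with the replicate block and with only the groups compared. Lip+ISO against ISO gave 0 higher and 1 lower at a log2 fold change of at least 1, and 5 lower with library totals and with the replicate block. The interaction gave 0 higher at that fold change, and 1 lower (Ppara) by DESeq2 and with the replicate block. Over the 15 leave-out fits, the members called higher numbered 0 to 1 in ISO against vehicle, 0 to 1 in Lip+ISO against Lip, 0 to 0 in Lip against vehicle, 0 to 2 in Lip+ISO against ISO and 0 to 1 in the interaction, and those called lower 2 to 4, 2 to 3, 0 to 1, 0 to 3 and 0 to 1. The causes were not tested.

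Changes of sign occurred only in values that were not called. Ppara in ISO against vehicle was -0.0257 with library totals, -0.0035 without a filter and -0.0245 to 0.0548 over the leave-out fits, and Nrip1 there was -0.114 to 0.0486. In Lip+ISO against Lip, Nrip1 was -0.0304 with library totals and -0.134 to 0.228 over leave-out fits, and Rxra -0.20 to 0.0676. In Lip against vehicle, Pparg was -0.0769 to 0.000302, Rxra -0.0579 to 0.14 and Rxrb -0.0351 to 0.0788. In the interaction, Ppard was -0.0476 to 0.25, Ncor1 -0.0834 to 0.0369 and Nrip1 -0.0646 to 0.31.

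The replicate block, a hint from the data rather than the design in Lip+ISO against ISO, called Rxrb (-0.35, adjusted p = 0.0309) and Ncor1 (-0.21, 0.0342) lower there, and Ppara in the interaction (-0.97, 0.0274). Every library correlated best with its own number (12 of 12), and 17 of 18 same-numbered pairs passed 0.1. The block changed no other call of a member than those given here or in the text. Over all genes it called 1149 higher and 1458 lower in Lip+ISO against ISO (590 and 621 without it) and 427 and 471 in the interaction (122 and 98), and DESeq2 called 22 and 35 in Lip against vehicle (1 and 6) and 338 and 241 in the interaction. Without length in the shares, every share moved by more than its SD. Counts of 124 to 870 (Ppara) and 121 to 470 (Rxrg) limit the precision of those members.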
